A study of Mus musculus with 8 samples.

Results

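The cytosolic ribosomal protein genes encode the protein part of the ribosomes that translate messenger RNA outside mitochondria. They were taken by symbol alone: a name of Rpl or Rps followed by a number, with an optional a, x, y or l and a further number, or Rplp0, Rplp1, Rplp2 or Rpsa, without pseudogenes named -ps and without the Rps6k kinases. Of 16940 genes in the deposited table, 81 met this rule, 48 of the large subunit and 33 of the small subunit. All 81 had a mean of at least 10 normalized reads over the 8 libraries and were tested, and the fewest reads behind any value of a member were 60. In the GENCODE M21 annotation 79 of them are protein-coding, Rps3a2 is a processed pseudogene and Rps4l a transcribed processed pseudogene.

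New RNA was measured by TT-seq, which labels transcripts for a short pulse with 4-thiouridine, fragments the RNA and captures the labelled pieces. Here the pulse lasted 15 min at 400 µM. The cells were E14, a mouse embryonic stem cell line, modified so that the protein CTCF is tagged with an auxin-inducible degron (AID). CTCF binds DNA at insulators and many promoters and halts cohesin there, and the auxin IAA has the tagged copy destroyed. All groups carry the tag, and all cells grew without serum in a medium with leukemia inhibitory factor, PD0325901 and CHIR99021. The samples form 4 groups of 2 replicates: the control overexpression line without IAA, the same line given IAA for 12 h, a line overexpressing wild-type CTCF with that treatment, and a line overexpressing mutated CTCF with that treatment. The mutation, the promoter of the overexpressed CTCF and the number of clones are not given in the sources used here. Nothing says that replicates came from separate cultures, so p-values measure the spread between these libraries, which may be technical.

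A ribosome joins a small subunit, which reads the messenger RNA, to a large subunit, which forms peptide bonds and holds the exit tunnel of the new protein. Cells need most of these proteins in equal number, and their genes are transcribed at high rates from short promoters. Many have a tract of pyrimidines at the start of the transcript, the terminal oligopyrimidine (TOP) element, through which mTORC1 controls their translation, and many carry small nucleolar RNA (snoRNA) genes in their introns. Binding sites for the ETS factor GABP, for YY1 and for Myc are common in such promoters, and CTCF binds near the starts of many genes.

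The promoters below are those of 6 members on which the results turn. Rplp0, Rpl10a and Rps4x, which were higher with wild-type CTCF, hold an exact match to a CTCF consensus. Rpl36a, Rps15 and Rps18, which also led that comparison and are not shown, hold no match even with 1 mismatch. Rpl5, which was lower after IAA, holds a match with 1 mismatch. Rpl41 and Rpl13a rose after IAA and have no such match. These members were picked after their values were seen and do not stand for the rest: most members with a match also rose after IAA, as the counts below show. Each run is 5′ to 3′ on the gene's strand, 200 bases before and 30 after the start annotated by RefSeq on GRCm38.p6. Capitals mark a CTCF match in Rplp0, Rpl10a, Rps4x and Rpl5, the ETS letters CCGGAAG in Rpl41 and the E-box CACGTG in Rpl13a, on either strand.
Rplp0 (chr5:115559267-115559496, plus strand): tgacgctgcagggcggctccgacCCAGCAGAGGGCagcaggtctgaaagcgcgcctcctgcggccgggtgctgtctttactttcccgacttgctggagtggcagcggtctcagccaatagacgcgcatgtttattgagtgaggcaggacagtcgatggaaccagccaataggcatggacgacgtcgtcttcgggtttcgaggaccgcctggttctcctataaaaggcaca
Rpl10a (chr17:28328271-28328500, plus strand): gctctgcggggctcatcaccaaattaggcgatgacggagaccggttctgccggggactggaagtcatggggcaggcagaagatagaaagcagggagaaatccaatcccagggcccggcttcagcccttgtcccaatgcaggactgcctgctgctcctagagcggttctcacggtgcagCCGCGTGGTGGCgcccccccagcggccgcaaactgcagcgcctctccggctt
Rps4x (chrX:102189362-102189591, minus strand): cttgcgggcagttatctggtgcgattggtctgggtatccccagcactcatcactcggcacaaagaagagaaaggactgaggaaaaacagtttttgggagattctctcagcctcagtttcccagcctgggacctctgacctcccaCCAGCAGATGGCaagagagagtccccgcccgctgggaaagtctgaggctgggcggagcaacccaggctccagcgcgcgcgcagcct
Rpl5 (chr5:107900328-107900557, plus strand): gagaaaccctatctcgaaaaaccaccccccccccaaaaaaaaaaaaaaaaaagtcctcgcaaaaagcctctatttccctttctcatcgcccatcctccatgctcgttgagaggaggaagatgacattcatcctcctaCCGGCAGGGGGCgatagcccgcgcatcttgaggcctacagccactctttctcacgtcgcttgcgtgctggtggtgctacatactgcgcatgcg
Rpl41 (chr10:128549139-128549368, minus strand): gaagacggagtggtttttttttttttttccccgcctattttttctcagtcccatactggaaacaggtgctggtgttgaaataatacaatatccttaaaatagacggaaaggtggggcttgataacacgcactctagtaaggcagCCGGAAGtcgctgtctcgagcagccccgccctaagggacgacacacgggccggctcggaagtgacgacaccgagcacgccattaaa
Rpl13a (chr7:45128716-45128945, minus strand): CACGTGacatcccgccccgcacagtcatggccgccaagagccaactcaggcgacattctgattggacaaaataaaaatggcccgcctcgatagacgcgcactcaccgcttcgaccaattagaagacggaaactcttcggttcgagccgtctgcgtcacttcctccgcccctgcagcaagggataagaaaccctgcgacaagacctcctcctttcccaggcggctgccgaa

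Promoters of 250 bases before to 50 after a RefSeq start were found for 59 of the 81 members and for 11349 tested genes, members included. A gene was counted as holding a motif if any of its listed starts did. The ETS letters CCGGAAG, on either strand, were in 42.4% of these members and 18.9% of all these genes. A run of at least 8 pyrimidines on the gene's strand within 20 bases before to 30 after the start was in 54.2% of members and 21.7% of genes. The YY1 letters AAGATGG were in 16.9% and 8.23%. The letters CCAAT were in 28.8% of members and 43.5% of genes. For the E-box CACGTG the shares were 10.2% and 11.4%, for the TATA box TATAAA 11.9% and 9.10%, and for the SP1 letters GGGCGG 62.7% and 65.9%. A match to either of 2 CTCF core consensus forms of 12 letters, with at most 1 mismatch on either strand, was in 12 members. That is 20.3% of members against 20.3% of genes. An exact match was in 3 members, Rplp0, Rpl10a and Rps4x (5.08%), against 1.74% of genes. Of the 12 members with a match, 9 rose and 1 fell with IAA, with a median log2 fold change of 0.17, and of the 47 without one 35 rose and 2 fell, with a median of 0.21. Over all tested genes 19.4% rose and 18.4% fell, with a median of -0.0017. With wild-type CTCF 7 of the 12 and 20 of the 47 were higher, with medians of 0.21 and 0.12, beside 21.5% of all tested genes. Leaving out wild-type replicate 2, fewer of both were called, and the medians were 0.12 and 0.03, beside 0.03 over all tested genes. Between mutated and wild-type CTCF the medians were -0.17 and -0.13, and -0.05 and -0.05 without that library. These matches are letters in a window, not measured binding.

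Recovered reads ran from 15671114 to 21561141 per library. Several marker sums moved with the groups. All 10 markers of naive embryonic stem cells were listed, at a summed level of 54422 to 55194 normalized reads in the untreated control, 56619 to 58152 with IAA, 61226 to 65129 with wild-type and 61482 to 64156 with mutated CTCF. Of 7 primitive endoderm markers 4 were listed, without Sox17, Sox7 and Foxa2, at 195 to 228 reads untreated and 269 to 331 with IAA, and at 233 to 262 and 256 to 259 in the CTCF lines. Of 8 fibroblast markers only Pdgfrb was listed, at 88.6 to 98.3 reads untreated and 155 in both libraries with IAA, then at 97.9 to 139 and 88.0 to 90.9. Of 6 markers of formative or primed cells 4 were listed, without Fgf5 and Pou3f1, at 764 to 790 reads untreated, 892 to 906 with IAA, 931 to 1042 with wild-type and 836 to 888 with mutated CTCF. Of 8 markers of the 2-cell-like state 1 was listed. It was at 4.18 to 6.90 reads untreated, 3.30 to 3.57 with IAA, 11.8 to 15.7 with wild-type and 3.95 to 5.22 with mutated CTCF. The part of these markers in the results was not tested. The replicates of wild-type CTCF stood further apart than those of the other groups: the chi-square of their recovered reads per degree of freedom was 3.07, against 1.30 to 1.57. In the ribosomal protein genes this difference ran one way. Wild-type replicate 2 was above replicate 1 in 79 of 81 members, by a median of 0.16 on the log2 scale against 0.05 over all tested genes. For the comparisons with wild-type CTCF, main counts and leading genes are therefore given also without that library. Across members, the difference between these replicates had a Spearman's rho of 0.23 with the GC content of the exons (n = 81), against 0.16 over 15799 genes, as a description.

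Per kilobase of exon, the members were among the more strongly labelled genes. Their mean over the 8 libraries had a median percentile of 94.8 among all tested genes, and 68 of 81 lay at or above the 90th percentile. In the large subunit the highest were Rpl38, Rpl4 and Rpl23a, at 2749, 2747 and 2640.5 normalized reads per kb. The lowest were Rpl34 at 290.3, Rpl29 at 138 and Rpl13a at 78.2 reads per kb. Rpl38 binds at the surface of the subunit, and Rpl23a sits at the mouth of the exit tunnel, where new proteins leave. In the small subunit the highest were Rps29, Rps4x and Rps15, at 1802, 1764 and 1621 reads per kb. The lowest were Rps19 at 471, Rps13 at 337 and the pseudogene Rps3a2 at 111 reads per kb. These ranks depend on the length used: over the gene body, introns included, Rpl38 fell to rank 37 of 48, at 391 reads per kb.

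All members together took up 0.793% and 0.775% of normalized reads in the untreated control and 0.883% and 0.843% after IAA. With wild-type CTCF the shares were 0.889% and 0.954%, and with mutated CTCF 0.845% and 0.849%. The untreated libraries were the lowest, the pair with wild-type CTCF the highest, and the mutated CTCF libraries lay within the range of the control with IAA. Both subunits followed this order, except that wild-type replicate 1 of the small subunit (0.372%) lay below control replicate 1 with IAA (0.377%). Less RNA per cell and fewer labelled cells cannot be told apart in such bulk shares.

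**Figure D1:**
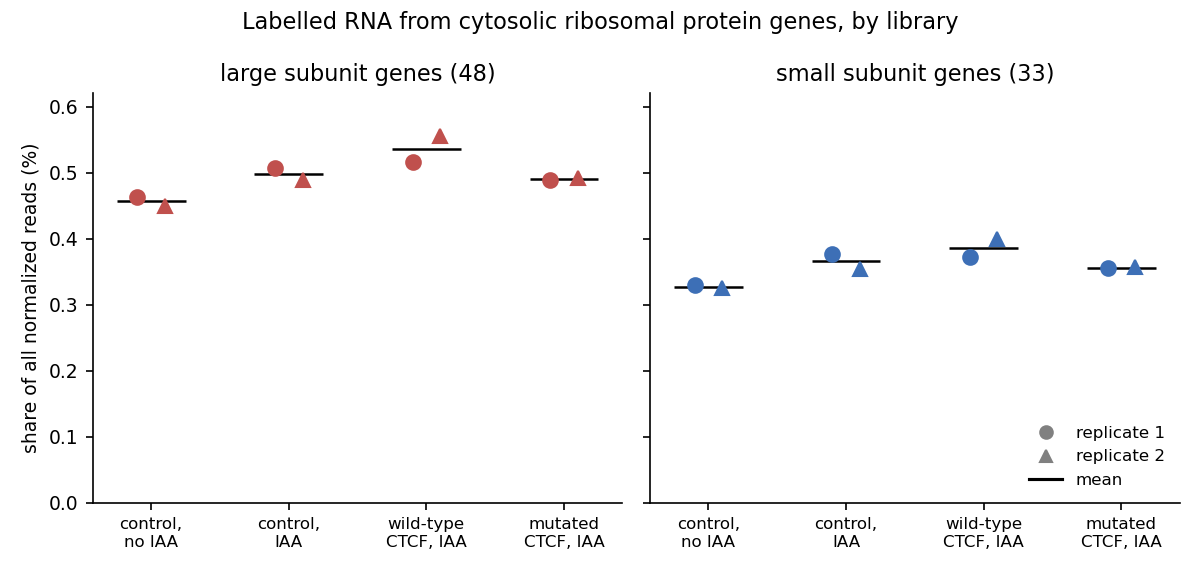
Share of all normalized reads (percent, vertical axis) taken by the 48 large subunit genes (left) and the 33 small subunit genes (right) in each of the 8 libraries, with circles for replicate 1, triangles for replicate 2 and a line for the group mean. In both panels the untreated control is lowest (0.449% to 0.464% and 0.326% to 0.329%) and wild-type replicate 2 is highest (0.555% and 0.399%).

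IAA in the control line sets cells given auxin, which destroys tagged CTCF, beside untreated cells. No line without the tag was given IAA, so loss of CTCF and auxin itself cannot be told apart. Of the 81 members, 61 rose and 3 fell, by limma with a Benjamini-Hochberg adjusted p under 0.05 over all 15818 tested genes. Over all tested genes 37.7% passed that threshold, 19.4% higher and 18.4% lower. The change was small and broad: 34 large subunit genes rose and 2 fell, with a median log2 fold change of 0.20, and 27 small subunit genes rose and 1 fell, with a median of 0.23. The median over all tested genes was -0.0017. In percent the medians were 14.8% and 17.0%. Without control replicate 1 with IAA, 40 members rose and 2 fell, beside 15.8% and 13.1% of all tested genes. With a variance prior not tied to the mean level, 25 rose and 1 fell, all among the genes above. These are 32.1% of members, against 24.9% of all tested genes called under that setting.

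In the large subunit the steepest rise was that of Rpl13a, which hosts 4 snoRNA genes and whose protein also takes part in the silencing of inflammatory messages. It was at 116 and 112 normalized reads in the untreated control, 168 and 173 in the control with IAA, 204 and 224 with wild-type CTCF and 158 and 169 with mutated CTCF. The libraries with IAA were all above the untreated pair, and the control groups did not overlap (log2 fold change 0.57 ± 0.12 SE, adjusted p = 0.00016). Rpl23a was at 1697 and 1699 normalized reads in the untreated control, 2202 and 2245 in the control with IAA, 2601 and 2818 with wild-type CTCF and 2285 and 2345 with mutated CTCF. Here too each library with IAA exceeded both untreated ones (log2 fold change 0.39 ± 0.05 SE, adjusted p = 3.4e-09 for IAA in the control line). Rpl41 encodes one of the shortest proteins known. Its values were 1294 and 1172 normalized reads in the untreated control, 1583 and 1604 in the control with IAA, 1707 and 1907 with wild-type CTCF and 1484 and 1520.5 with mutated CTCF. The control groups again did not overlap (log2 fold change 0.37 ± 0.05 SE, adjusted p = 4.5e-07).

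Rpl5 and Rpl36a went the other way. Rpl5 binds the 5S ribosomal RNA together with Rpl11 and, when free of the ribosome, Mdm2, the ligase that removes p53. It was at 4143 and 4103 normalized reads in the untreated control, 3588 and 3362 in the control with IAA, 4337 and 4541 with wild-type CTCF and 4276 and 4098 with mutated CTCF. The 2 control libraries with IAA were the lowest of the 8, and all others lay within 4098 to 4541 (log2 fold change -0.25 ± 0.04 SE, adjusted p = 2.4e-06). Rpl36a, an X-linked gene whose protein lies near the exit site for transfer RNA, was at 1480.3 and 1396 normalized reads in the untreated control, 1352 and 1185 in the control with IAA, 1733 and 1825 with wild-type CTCF and 1385 and 1371 with mutated CTCF. Its control libraries with IAA were the lowest of all 8, and those with wild-type CTCF the highest (log2 fold change with IAA -0.18 ± 0.05 SE, adjusted p = 0.0069). Without a variance trend the fall of Rpl36a was not called (adjusted p = 0.14), while that of Rpl5 was (adjusted p = 0.029). The call for Rpl36a was also lost without control replicate 2 with IAA (-0.09, adjusted p = 0.31) and without untreated replicate 1 (-0.14, adjusted p = 0.14). Rpl11, the partner of Rpl5, did not pass the test: it was at 1096 and 1182 normalized reads in the untreated control, 1169 and 1135 in the control with IAA, 1296 and 1369 with wild-type CTCF and 1266 and 1241 with mutated CTCF (a log2 difference of 0.02 ± 0.05 SE, adjusted p = 0.84). Its control values with and without IAA overlapped.

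In the small subunit Rps29, a zinc-binding protein of the head, was at 1026 and 978 normalized reads in the untreated control, 1435 and 1317 in the control with IAA, 1359 and 1412 with wild-type CTCF and 1323 and 1142 with mutated CTCF. All 6 libraries with IAA were above the untreated pair (log2 fold change 0.46 ± 0.06 SE, adjusted p = 4.4e-08 in the control line). The largest fitted rise was that of the pseudogene Rps3a2, at 50.2 and 68.1 normalized reads in the untreated control, 108 and 80.3 in the control with IAA, 84.8 and 139 with wild-type CTCF and 86.7 and 85 with mutated CTCF (a log2 difference of 0.67 ± 0.19 SE, adjusted p = 0.0048). Its reads may be shared with its parent Rps3a1, which rose less, from 1021 and 1103 to 1233 and 1154 normalized reads (a log2 difference of 0.17 ± 0.06 SE, adjusted p = 0.032), and its call was lost without a variance trend (adjusted p = 0.14), without untreated replicate 1 (0.45, adjusted p = 0.18) and without control replicate 1 with IAA (0.45, adjusted p = 0.15). The only fall was that of Rps27l, a p53 target and copy of Rps27, and DESeq2 on recovered reads did not call it. It was at 970.4 and 988 normalized reads in the untreated control, 824 and 866 in the control with IAA, 826 and 1016 with wild-type CTCF and 895 and 784 with mutated CTCF. Its control groups did not overlap (log2 fold change -0.21 ± 0.07 SE, adjusted p = 0.015), and it was not called without a variance trend (adjusted p = 0.23), without either untreated replicate (adjusted p = 0.087 and 0.13) or without control replicate 1 with IAA (adjusted p = 0.14).

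**Figure D2:**
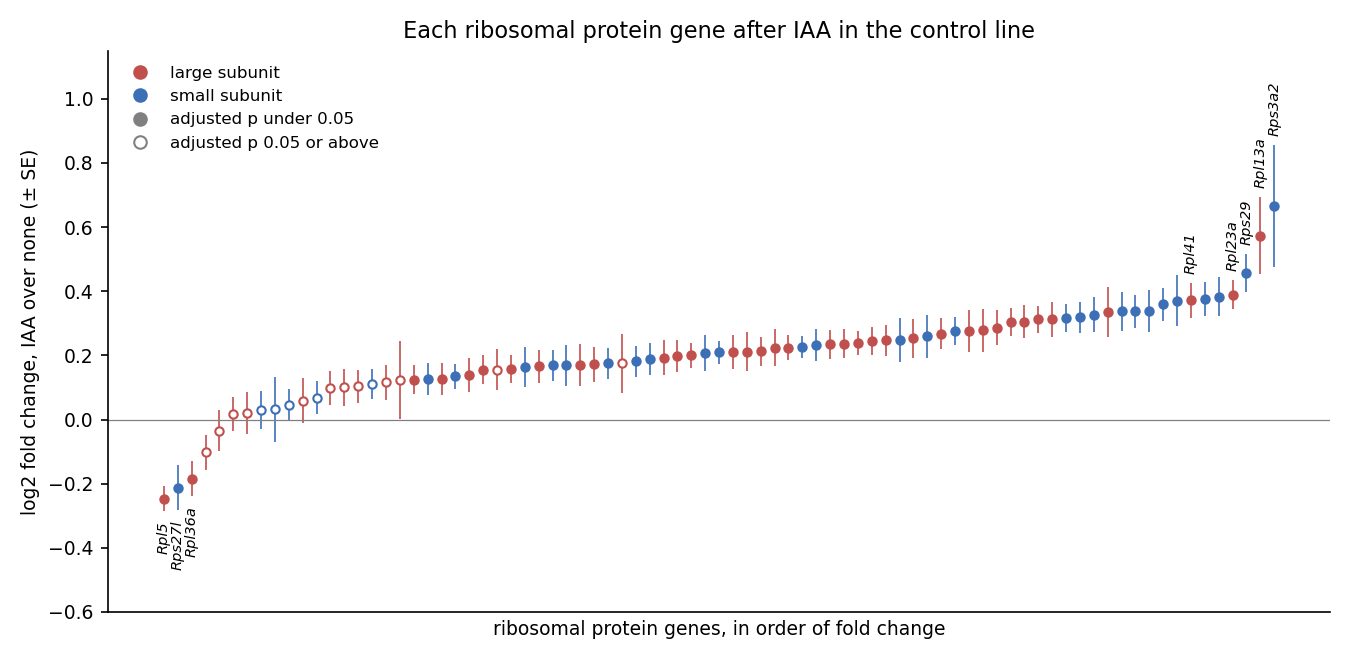
Log2 fold change of each of the 81 members for IAA over none in the control line (vertical axis, bars ± SE), in order along the horizontal axis, red for large and blue for small subunit genes, filled where the adjusted p is under 0.05. Most genes lie between 0 and 0.4, with Rpl5, Rps27l and Rpl36a below 0 at the left and Rps29, Rpl13a and Rps3a2 at the right.

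The comparison of wild-type CTCF with the control, both given IAA, asks what restored CTCF changes. Here 34 members were higher and 1 lower, where over all tested genes 31.6% were called, 21.5% higher and 10% lower. In the large subunit 21 genes were higher and 0 lower, with a median log2 fold change of 0.14, and in the small subunit 13 were higher and 1 lower, with a median of 0.13. The median over all tested genes was 0.06. Much of this rests on wild-type replicate 2: without it, 10 members were higher and 3 lower, all 10 among the 34, and the medians fell to 0.04 and 0.0027, beside 0.03 over all tested genes, of which 12.4% were then higher and 8.30% lower. Without wild-type replicate 1, 55 were higher, with medians of 0.22 and 0.24, beside 21.7% of all tested genes. Without control replicate 2 with IAA, 22 were higher and 1 lower, beside 16.9% and 5.90% of all tested genes. DESeq2 on recovered reads called 14 higher and 1 lower, where it called 16.5% of all tested genes. Without a variance trend limma called 5 higher, 6.17% of members against 15.0% of all tested genes. The scaling bears on the direction: after median-of-ratios rescaling 24 were higher and 8 lower, with medians of 0.08 and 0.07, and over all tested genes 16.1% were higher and 15.9% lower. With edgeR on recovered reads 27 were higher and 8 lower, also with medians of 0.08 and 0.07, beside 16.1% and 15.8% of all tested genes.

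The genes that led this comparison kept their call without wild-type replicate 2. Rplp0, the base of the acidic stalk to which elongation factors bind, was at 1586 and 1709 normalized reads in the untreated control, 1637 and 1578 in the control with IAA, 2031 and 2566 with wild-type CTCF and 1607 and 1846 with mutated CTCF. Both wild-type libraries were above the other 6, while IAA had left the control values overlapping (log2 fold change 0.51 ± 0.07 SE, adjusted p = 7.7e-08). Without wild-type replicate 2 the difference was 0.34 (adjusted p = 1.6e-06), and without a variance trend it was not called (adjusted p = 0.055). Rpl36a, given above, was higher too (log2 fold change 0.49 ± 0.05 SE, adjusted p = 3.2e-09, and 0.45 without wild-type replicate 2, adjusted p = 5.2e-10). Rpl10a, which forms the L1 stalk where spent transfer RNA leaves, was at 903 and 969.8 normalized reads in the untreated control, 1098 and 1169 in the control with IAA, 1352 and 1670.0 with wild-type CTCF and 1152 and 1241 with mutated CTCF (a log2 difference of 0.41 ± 0.07 SE, adjusted p = 6.0e-06). The wild-type pair did not overlap the control pair with IAA, and without wild-type replicate 2 the difference was 0.25 (adjusted p = 0.0023).

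Among small subunit genes Rps15, a protein of the head that reaches toward the decoding site, was at 817 and 827 normalized reads in the untreated control, 1014 and 955 in the control with IAA, 1159 and 1403 with wild-type CTCF and 945 and 1051 with mutated CTCF. The wild-type libraries were the highest (log2 fold change 0.37 ± 0.07 SE, adjusted p = 2.8e-05). Rps4x, an X-linked gene, was at 2442 and 2733 normalized reads in the untreated control, 2808 and 2478 in the control with IAA, 3039 and 3725 with wild-type CTCF and 2881 and 2914 with mutated CTCF. It had not passed the test for IAA (log2 fold change 0.03 ± 0.06 SE, adjusted p = 0.73), and both wild-type libraries were above the other 6 (log2 fold change 0.35 ± 0.06 SE, adjusted p = 1.1e-05). Rps18 was at 1917 and 1906 normalized reads in the untreated control, 2276 and 2064 in the control with IAA, 2573 and 2839 with wild-type CTCF and 2164 and 2184 with mutated CTCF. Its wild-type libraries too were the top pair (log2 fold change 0.32 ± 0.05 SE, adjusted p = 2.3e-06). Without wild-type replicate 2 these differences were 0.24 (adjusted p = 0.0084), 0.20 (adjusted p = 0.0018) and 0.25 (adjusted p = 0.00023). Without a variance trend Rps18 passed (adjusted p = 0.043), and Rpl10a, Rps15 and Rps4x did not (adjusted p = 0.067, 0.070 and 0.11). The call for Rps4x was lost under 2 of 18 alternatives, that one among them. Rps27a, which is made as a fusion with ubiquitin, was the only member lower: it had gone up with IAA and was at 1618 and 1694 normalized reads in the untreated control, 2226 and 2027 in the control with IAA, 1878 and 1997 with wild-type CTCF and 2089 and 1922 with mutated CTCF (a log2 difference of -0.13 ± 0.05 SE, adjusted p = 0.041). Both wild-type values lay between the untreated pair and the control pair with IAA, and the call was lost without a variance trend (adjusted p = 0.26), with the correction for length and GC (-0.12, adjusted p = 0.061), without control replicate 1 with IAA (-0.07, adjusted p = 0.49) and without wild-type replicate 1 (-0.09, adjusted p = 0.26). Without wild-type replicate 2 it was -0.18 (adjusted p = 0.016).

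**Figure D3:**
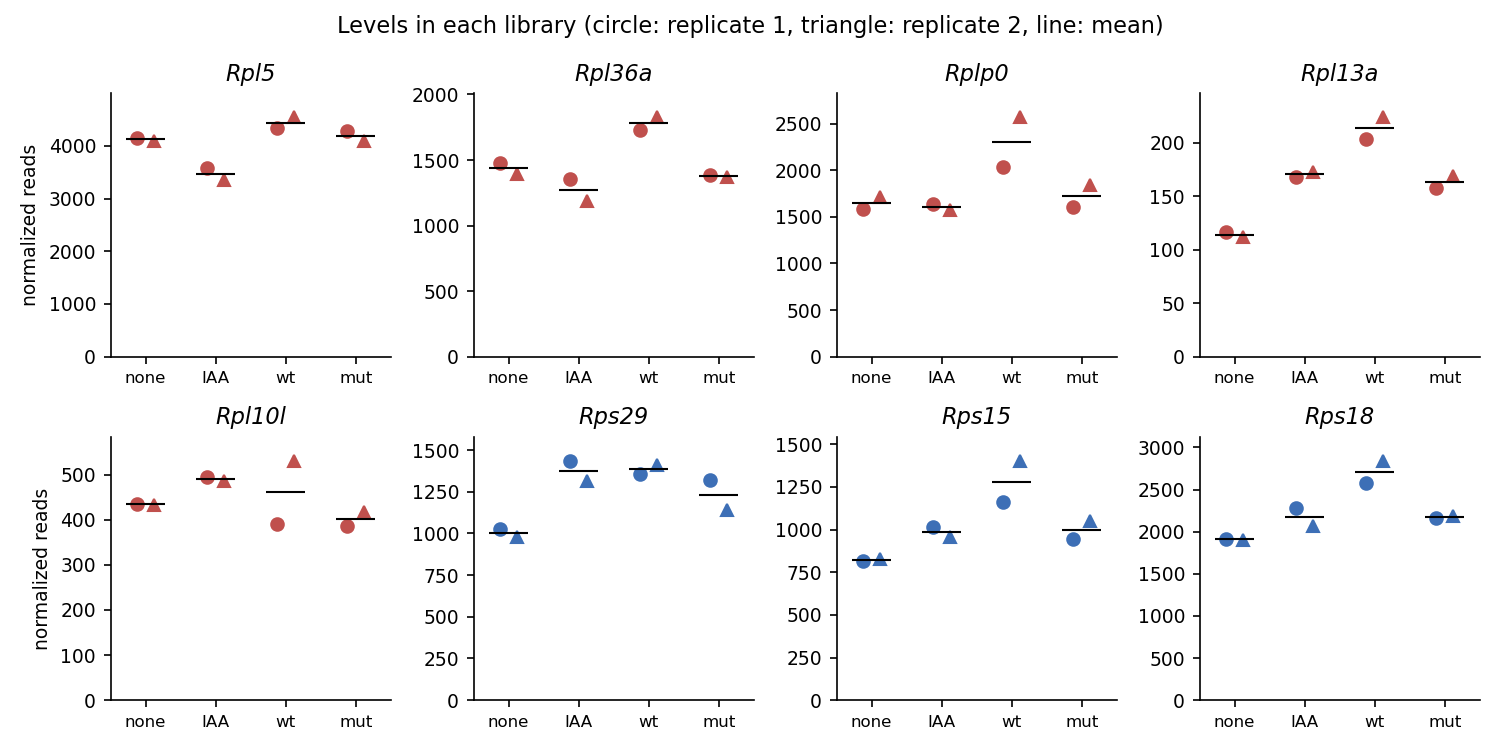
Normalized reads (vertical axes, each from 0) of 8 members in every library, for the control line untreated (none) and with IAA, and for wild-type (wt) and mutated (mut) CTCF with IAA; circles are replicate 1, triangles replicate 2 and lines group means. Rpl5 and Rpl36a are lowest in the control with IAA, Rplp0 is high only in the wild-type pair, and Rps29 is lowest in the untreated pair.

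With mutated CTCF the members lay close to the control given IAA. Of them 4 were higher and 6 lower, where 34.3% of all tested genes were called, 22.0% higher and 12.4% lower. The median log2 fold change was -0.0062 in the large subunit and -0.016 in the small subunit, beside 0.06 over all tested genes. Both medians turned slightly positive without control replicate 1 with IAA and without mutated replicate 1. The members that were higher were Rpl5 (log2 fold change 0.27 ± 0.04 SE, adjusted p = 7.6e-07), Rpl39l (0.28 ± 0.08 SE, adjusted p = 0.0052), Rpl7l1 (0.26 ± 0.05 SE, adjusted p = 0.00019) and Rpl22 (0.22 ± 0.05 SE, adjusted p = 0.00073). Rpl5 in the mutated libraries, at 4276 and 4098 reads, was near the untreated 4143 and 4103. The large subunit genes that were lower were Rpl10l (log2 fold change -0.29 ± 0.09 SE, adjusted p = 0.012) and Rpl6 (-0.11 ± 0.04 SE, adjusted p = 0.048). In the small subunit Rps27 (-0.25 ± 0.07 SE, adjusted p = 0.0029), Rps29 (-0.16 ± 0.06 SE, adjusted p = 0.031), Rps26, which lies where the message leaves the subunit (-0.14 ± 0.05 SE, adjusted p = 0.041), and Rps12 (-0.11 ± 0.04 SE, adjusted p = 0.046) were lower. These 4 had risen with IAA in the control line, as had 27 of the 33 small subunit genes, and both comparisons use the same control libraries with IAA. The 6 falls were lost without control replicate 1 with IAA, where 6 members were higher and 0 lower beside 15.0% and 10.1% of all tested genes, and without a variance trend, where 1 was called, Rpl5 (adjusted p = 0.029). Rpl39l too lost its call without control replicate 1 with IAA (0.17, adjusted p = 0.19). Of 16 alternatives, 6 lost the fall of Rpl6, 4 each those of Rpl10l and Rps12, 3 that of Rps26 and 2 that of Rps27. Median-of-ratios rescaling gave 4 members higher and 16 lower, with medians of -0.06 and -0.07, and over all tested genes 17.1% higher and 17.0% lower.

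A direct comparison set the overexpression lines side by side. Of the members 42 were lower with mutated CTCF and 2 higher, where 34.7% of all tested genes were called, 16.3% higher and 18.4% lower. The median log2 fold change was -0.16 in the large subunit, with 24 genes lower and 2 higher, and -0.16 in the small subunit, with 18 lower and 0 higher. Over all tested genes it was -0.0087. Without wild-type replicate 2 there were 15 lower, all among the 42, and 4 higher, and the medians were -0.05 and -0.03; over all tested genes 14.6% were then higher and 12.3% lower. Without mutated replicate 1 there were 26 lower and 1 higher, beside 12.4% and 12.7% of all tested genes. Without a variance trend 6 were lower, 7.41% of members, where 20.6% of all tested genes were called.

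Of the genes furthest apart between the forms, Rplp0, Rpl36a, Rps15 and Rps18 had also led with wild-type CTCF, while Rpl13a had led with IAA. This comparison and that of wild-type CTCF with the control use the same wild-type libraries, so their leading genes are not independent. Rplp0 was lower with mutated CTCF (-0.41 ± 0.07 SE, adjusted p = 3.8e-06; -0.24 without wild-type replicate 2, adjusted p = 0.00088). Without a variance trend its call was lost (adjusted p = 0.080). For Rpl36a the difference was -0.37 ± 0.05 SE, adjusted p = 1.1e-06 (-0.33 without wild-type replicate 2, adjusted p = 6.7e-06), and for Rpl13a -0.38 ± 0.12 SE, adjusted p = 0.011. The values of Rpl36a in the 2 forms did not overlap (1733 and 1825 reads against 1385 and 1371), nor did those of Rpl13a (204 and 224 against 158 and 169). The call for Rpl13a was lost without wild-type replicate 2 (-0.32, adjusted p = 0.11) and without mutated replicate 1 (-0.33, adjusted p = 0.092). In the small subunit Rps15 (log2 fold change -0.36 ± 0.07 SE, adjusted p = 4.5e-05) and Rps18 (-0.31 ± 0.05 SE, adjusted p = 2.0e-06) were among the leading genes. Both were also called without wild-type replicate 2 (adjusted p = 0.013 and 0.00021), but without a variance trend only Rps18 was (adjusted p = 0.035, against 0.068 for Rps15). Only 2 copies were higher with mutated CTCF, Rpl22l1 (log2 fold change 0.26 ± 0.06 SE, adjusted p = 0.0013) and Rpl39l (0.23 ± 0.08 SE, adjusted p = 0.023), and neither was called without a variance trend (adjusted p = 0.13 and 0.18). Both differences depended on the wild-type libraries: without wild-type replicate 1 they were 0.14 and 0.11 (adjusted p = 0.12 and 0.37), and without wild-type replicate 2 0.38 and 0.34 (adjusted p = 9.0e-07 and 0.0014). Rpl39l was not called either without mutated replicate 1 or 2 (adjusted p = 0.10 and 0.052), nor with the correction for length and GC (0.16, adjusted p = 0.11).

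**Figure D4:**
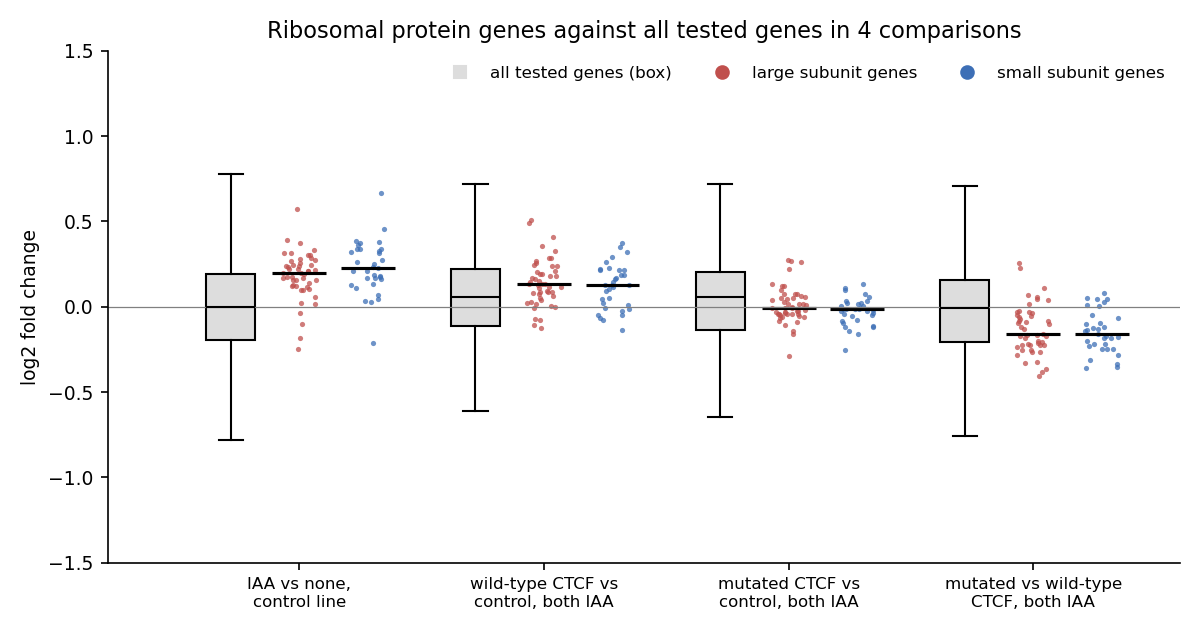
Log2 fold changes (vertical axis) in the 4 comparisons: grey boxes show all 15818 tested genes (median, quartiles and whiskers to 1.5 times the quartile range, outliers not drawn), red points the 48 large subunit genes and blue points the 33 small subunit genes, with black lines at their medians. Member medians are 0.20 and 0.23 for IAA, 0.14 and 0.13 for the wild-type line, -0.0062 and -0.016 for the mutated line and -0.16 and -0.16 between the forms.

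The effect of IAA and the difference between CTCF forms share no library, so they can be set side by side. Of the 61 members that rose with IAA, 35 were lower with mutated than with wild-type CTCF, 19 of the large and 16 of the small subunit, and 1, Rpl39l, was higher. The 35 are 57.4% of the members that rose and 83.3% of the 42 that were lower. Of all 81 members 51.9% were lower between forms and 75.3% rose with IAA, so these shares lie near those of the members as a whole. Over all tested genes 970 did both, 31.7% of the 3062 that rose and 33.3% of the 2917 that were lower. With wild-type replicate 2 left out, 13 members did both, 21.3% of those that rose, against 22.1% over all tested genes, and without a variance trend in the comparison of forms 5 did, 8.20% of those that rose against 18.5% over all tested genes. Of the 3 that fell with IAA, Rpl36a was lower with mutated CTCF, and Rpl5 and Rps27l did not pass the test. Across the 81 members Pearson's r was -0.24 and Spearman's rho -0.32, against -0.12 and -0.14 across all 15818 tested genes. These are descriptions over genes of the same libraries, which are not independent. Members of higher GC content tended to have the more negative difference between forms (rho = -0.41 over members, -0.10 over all tested genes). The part of GC content in the difference was not tested beyond the correction for length and GC given with the processing alternatives.

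**Figure D5:**
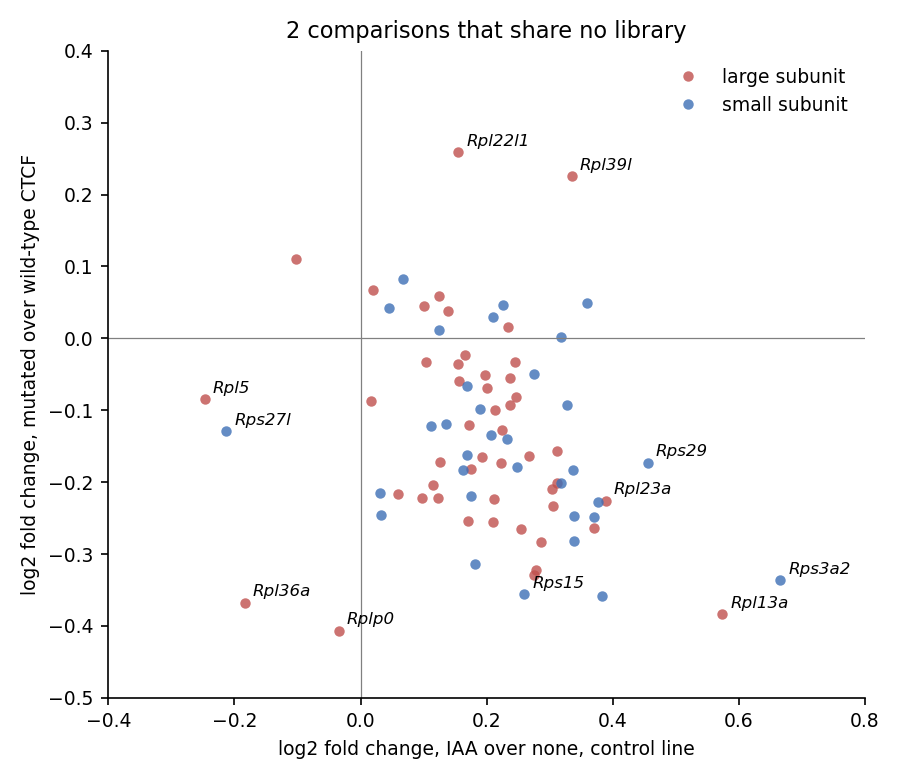
Log2 fold change for IAA in the control line (horizontal axis) against that for mutated over wild-type CTCF (vertical axis), 1 point per member, red for large and blue for small subunit genes. Most points lie right of 0 and below 0; Rpl5, Rpl36a and Rps27l lie at the left, and Rpl22l1 and Rpl39l at the top.

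Against the untreated control, most members were called higher in both overexpression lines. With wild-type CTCF 72 were higher and 0 lower, where 43.2% of all tested genes were called, 27.6% higher and 15.6% lower. The medians were 0.32 in the large subunit and 0.35 in the small subunit. With mutated CTCF 59 were higher and 1, Rps27l, lower, where 37.8% of all tested genes were called, 24.0% higher and 13.7% lower, with medians of 0.20 and 0.23. Without a variance trend the called members were 65.4% against 30.8% of all tested genes with wild-type CTCF, and 24.7% against 24.5% with mutated CTCF. These comparisons differ from that of IAA in the control line by the cell line as well as the overexpressed CTCF, and use the same untreated libraries. The CTCF lines have no untreated libraries of their own, and the part of the line was not tested. Of the 72 members higher with wild-type CTCF, 63 were also called higher without wild-type replicate 2, where 1 member was lower and the medians were 0.24 and 0.25, beside 19.9% of all tested genes higher and 13.8% lower. Median-of-ratios rescaling gave 69 higher and 0 lower with wild-type CTCF and 53 higher and 1 lower with mutated CTCF, where all tested genes split into 23.1% higher and 21.5% lower, and 19.9% higher and 18.3% lower. The steepest was Rpl13a (log2 fold change 0.90 ± 0.12 SE, adjusted p = 7.0e-08). Rpl23a (0.67 ± 0.05 SE, adjusted p = 1.9e-15) and Rpl10a (0.68 ± 0.07 SE, adjusted p = 3.7e-11) followed among protein-coding members. Without wild-type replicate 2 these were 0.83, 0.61 and 0.53 (adjusted p = 1.6e-06, 1.2e-21 and 4.9e-12). Rpl5 was 0.11 above the untreated level with wild-type CTCF (adjusted p = 0.027; 0.07 and adjusted p = 0.24 without wild-type replicate 2) and 0.02 with mutated CTCF (adjusted p = 0.71).

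Copies of ribosomal protein genes are given beside the gene each resembles. Rpl39l, an autosomal copy of Rpl39 best known from the testis, was at 415 and 433 normalized reads in the untreated control, 497 and 575 in the control with IAA, 511 and 600.2 with wild-type CTCF and 654 and 642 with mutated CTCF. It was lowest in the untreated pair and highest with mutated CTCF, where it exceeded the untreated control (0.61 ± 0.08 SE, adjusted p = 4.0e-08). Rpl39 itself, X-linked, was at 1275 and 1165 normalized reads in the untreated control, 1332 and 1282 in the control with IAA, 1262 and 1408 with wild-type CTCF and 1429 and 1322 with mutated CTCF. Rpl22l1, a copy of Rpl22, was at 980.5 and 1110.3 normalized reads in the untreated control, 1179 and 1145 in the control with IAA, 979 and 1162 with wild-type CTCF and 1284 and 1269 with mutated CTCF. The mutated pair was highest, and the wild-type pair overlapped both control groups; without wild-type replicate 2 it was below the control with IAA (-0.25, adjusted p = 0.0032). Rpl22 was at 1844 and 1719 normalized reads in the untreated control, 1939 and 1886 in the control with IAA, 2124 and 2455 with wild-type CTCF and 2193 and 2271 with mutated CTCF, above all control libraries in both overexpression lines. Rpl10l, an intronless copy of the X-linked Rpl10 that male germ cells use, was at 435 and 434 normalized reads in the untreated control, 494 and 486 in the control with IAA, 391 and 531 with wild-type CTCF and 386 and 418 with mutated CTCF. Its wild-type libraries stood 391 against 531 apart, wider than any other pair of this gene. Rpl10 was at 1317 and 1347 normalized reads in the untreated control, 1668 and 1565 in the control with IAA, 1574 and 2083 with wild-type CTCF and 1419 and 1479 with mutated CTCF, with both untreated libraries lowest. Rpl7l1, a copy of Rpl7 found in nucleoli, was at 1507 and 1691 normalized reads in the untreated control, 1475 and 1499 in the control with IAA, 1565 and 1739.5 with wild-type CTCF and 1743 and 1820.0 with mutated CTCF. Rpl7l1 was above its control values with IAA in both libraries of each overexpression line. Rps4l, a copy of Rps4x, was at 406 and 478 normalized reads in the untreated control, 443 and 458 in the control with IAA, 444 and 620.5 with wild-type CTCF and 397 and 493 with mutated CTCF and passed none of the 4 main comparisons. Setting the 6 copies named with l and Rps3a2 aside changed the medians with IAA to 0.21 over 44 large and 0.23 over 30 small subunit genes.

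Members are spread over 19 chromosomes, with 14 of them on chromosome 7. In 29 members the annotation places 57 snoRNA genes on the same strand. With IAA 25 of these 29 rose and 1 fell, with a median of 0.23, and of the other 52 members 36 rose and 2 fell, with a median of 0.18. Over all tested genes 19.4% rose and 18.4% fell. Between CTCF forms 20 of the 29 hosts were lower and 0 higher (median -0.17), and of the others 22 of 52 were lower and 2 higher (median -0.13). Over all tested genes 18.4% were lower and 16.3% higher. Without wild-type replicate 2 fewer of both were called, and the medians were -0.05 and -0.04, beside 0.02 over all tested genes. Listed genes overlap 21 members on the opposite strand. The libraries kept strand, but the strand setting of the counting is not given in the sources used here, so reads of such pairs, among them Rpl5, Rpl10a, Rpl23a, Rps18 and Rps27a, may not be fully separated. Among these 21, 16 rose and 1 fell with IAA (median 0.17), beside the 19.4% and 18.4% of all tested genes given above.

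Ribosomal protein pseudogenes named -ps, of which 33 were listed and 26 tested, had 5 genes higher and 0 lower with IAA (median 0.39), 4 higher and 0 lower with wild-type CTCF (median 0.31), 1 higher and 2 lower with mutated CTCF (median -0.12), and 0 higher and 2 lower between forms (median -0.39). Leaving out wild-type replicate 2, fewer were called, and the medians were 0.23 with wild-type CTCF and -0.33 between forms. With IAA 19.2% of those tested were higher against 19.4% of all tested genes, and with wild-type CTCF 15.4% against 21.5%. Their reads may belong in part to the parent genes. Ribosomal proteins or their relatives whose names lie outside the rule were also looked at: of 4 listed, Rack1, a scaffold on the small subunit head (log2 fold change with IAA 0.24 ± 0.05 SE, adjusted p = 9.0e-05), and Fau, whose product is cleaved to a small subunit protein (0.18 ± 0.07 SE, adjusted p = 0.040), rose with IAA. Both were higher again with wild-type CTCF, but not without wild-type replicate 2. With mutated CTCF 0 of the 4 were called, and between forms 1, Fau, was lower. The 75 mitochondrial ribosomal protein genes, which serve the ribosome inside mitochondria, had 7 higher and 8 lower with IAA (median 0.03), 16 higher and 3 lower with wild-type CTCF (median 0.09), 12 higher and 1 lower with mutated CTCF (median 0.10) and 5 higher and 6 lower between forms (median 0.0006). With IAA 20.0% of them were called against 37.7% of all tested genes, and with wild-type CTCF 21.3% were higher against 21.5%. In the fit without wild-type replicate 2 fewer were called, and the medians were 0.07 with wild-type CTCF and 0.01 between forms. After median-of-ratios rescaling 9 were higher and 6 lower with wild-type CTCF (median 0.03), and 10 higher and 4 lower with mutated CTCF (median 0.04). Over all tested genes that rescaling gave 16.1% higher and 15.9% lower, and 17.1% higher and 17.0% lower.

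The genes that build the ribosome were listed apart, and their counts read against the shares of all tested genes called, which were 37.7% with IAA, 31.6% with wild-type CTCF, 34.3% with mutated CTCF and 34.7% between forms. Without wild-type replicate 2 fewer were called with wild-type CTCF and between forms, in each list and over all tested genes. For that fit only medians are given here. Over all tested genes they were 0.03 and 0.02. Of 44 ribosome biogenesis factors 8 rose and 4 fell with IAA (median 0.07), 27.3% of the list. With wild-type CTCF 31 were higher and 0 lower (median 0.22), with mutated CTCF 16 higher and 0 lower (median 0.14), and between forms 3 were higher and 13 lower (median -0.08). With wild-type replicate 2 left out, the medians were 0.18 with wild-type CTCF and -0.06 between forms. After median-of-ratios rescaling 22 were higher and 0 lower with wild-type CTCF (median 0.17), and 11 higher and 0 lower with mutated CTCF (median 0.08). Bysl, a factor of small subunit maturation, fell from 502 ± 8.86 to 248 ± 11.1 normalized reads with IAA (SD, n = 2) and was back at 450 ± 5.47 in the wild-type line and 407 ± 52.3 in the mutated line. Ncl, the abundant nucleolar protein nucleolin, rose with IAA (0.27 ± 0.03 SE, adjusted p = 2.5e-09). Of 15 genes of the RNA polymerase I machinery, which makes ribosomal RNA, 4 rose and 3 fell with IAA (median -0.04), 10 were higher with wild-type CTCF and 0 lower (median 0.19), 6 higher and 1 lower with mutated CTCF (median 0.24), and 2 higher and 2 lower between forms (median -0.07). Leaving out wild-type replicate 2, the medians were 0.17 with wild-type CTCF and -0.02 between forms. Rrn3, which brings the polymerase to its promoter, was 0.39 ± 0.04 SE higher with mutated CTCF than in the control with IAA (adjusted p = 1.2e-09). Of 9 genes of ribosomal RNA modification 2 rose and 2 fell with IAA (median 0.11), 4 were higher in each of the CTCF lines and 0 lower (medians 0.23 and 0.14), and 1 was higher and 2 lower between forms (median -0.08). Without wild-type replicate 2 their medians were 0.21 with wild-type CTCF and -0.05 between forms. Zcchc4, which methylates the RNA of the large subunit, had the steepest fall, from 1445 ± 38.1 to 602 ± 38.9 reads with IAA (SD, n = 2; adjusted p = 3.0e-20).

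Of 37 initiation and elongation factors 20 rose and 2 fell with IAA (median 0.16), 25 were higher and 0 lower with wild-type CTCF (median 0.19), 15 higher and 1 lower with mutated CTCF (median 0.09), and 1 was higher and 13 lower between forms (median -0.08). In the fit without wild-type replicate 2 the medians were 0.13 with wild-type CTCF and -0.02 between forms. Median-of-ratios rescaling gave 20 higher and 1 lower with wild-type CTCF (median 0.13), and 10 higher and 4 lower with mutated CTCF (median 0.04). Eef2, which moves the ribosome along the message, rose with IAA (0.35 ± 0.06 SE, adjusted p = 2.3e-06), and so did Eif4g1, the scaffold of the cap-binding complex (0.39 ± 0.04 SE, adjusted p = 3.0e-09). Of 19 genes of TOP messages and mTORC1 control 6 rose and 1 fell with IAA (median 0.03), 8 were higher and 1 lower with wild-type CTCF (median 0.11), 6 higher and 2 lower with mutated CTCF (median 0.03), and 2 higher and 7 lower between forms (median -0.02). The 7 called with IAA are 36.8% of the list, near the 37.7% of all tested genes. With wild-type replicate 2 left out, the medians were 0.07 with wild-type CTCF and -0.0047 between forms. Median-of-ratios rescaling gave 7 higher and 3 lower with wild-type CTCF (median 0.05), and 5 higher and 4 lower with mutated CTCF (median -0.02). Mlst8, a subunit of mTOR complexes, rose from 122 ± 13.5 to 216 ± 18.6 reads with IAA (SD, n = 2; adjusted p = 4.8e-07), and Deptor, an inhibitor of mTOR, fell by 0.47 ± 0.04 SE (adjusted p = 4.3e-13). Of 16 transcription factors linked to these promoters 3 rose and 5 fell with IAA (median -0.03), 10 were higher and 0 lower with wild-type CTCF (median 0.19), 10 higher and 1 lower with mutated CTCF (median 0.15), and 3 higher and 2 lower between forms (median -0.03). Leaving out wild-type replicate 2, their medians were 0.16 with wild-type CTCF and -0.01 between forms. Myc was at 9.38 ± 3.81 reads untreated and 36.5 ± 2.79 with IAA (SD, n = 2; adjusted p = 7.8e-07) and its relative Mycn fell from 517 ± 20.5 to 385 ± 17.9 (adjusted p = 9.7e-06). Gabpb1, a subunit of the ETS factor GABP, fell by 0.40 ± 0.04 SE (adjusted p = 6.6e-10). Of 16 chaperones and surveillance factors of ribosomal proteins 6 rose and 1 fell with IAA (median 0.07), 6 were higher and 0 lower with wild-type CTCF (median 0.17), 4 higher and 1 lower with mutated CTCF (median 0.07), and 0 higher and 5 lower between forms (median -0.09). In the fit without wild-type replicate 2 their medians were 0.12 with wild-type CTCF and -0.07 between forms.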

How the data were processed

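The authors deposited 1 table of normalized read counts per gene, a signal on a scale set for each library, with versioned Ensembl IDs and symbols. The submitters' processing notes name Trim Galore, STAR, featureCounts, DESeq2 and the build mm10. In each library 100% of values were whole multiples of a single step (within 0.1 of a read), which was taken as 1 read and lay between 0.836 and 1.19. In 1 mutated CTCF library the step (0.989) is too close to 1 for this to be checked. Its recovered reads enter only the totals, the chi-square of replicates and the fewest reads behind a member's value. Reads may include copies of 1 molecule, so counting error is the least error.

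The values were tested with limma 3.58.1 (R 4.3.3) on log2(value + 1), with 1 coefficient per group over all 8 libraries, 4 residual degrees of freedom, empirical Bayes moderation following the mean-variance trend, and Benjamini-Hochberg adjustment within each of 6 comparisons. The 15818 genes tested are those whose values averaged 10 or more. Every adjusted p in the text is from limma unless another tool is named. Fold changes are on that scale, so those of low genes are understated. Values after ± are SE where so marked and otherwise SD over 2 replicates.

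The members, the gene lists and the tests were chosen with earlier results of these data known. Named members were, per main comparison and subunit, the 3 highest and 3 lowest fold changes among called members whose groups did not overlap, the copies named with l, and the 3 highest and 3 lowest levels per kb. From other lists up to 2 called genes per direction could be named. Others (Rpl11, Rpl22, Rps29 with mutated CTCF, and genes set beside a copy) were named after their values were seen.

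GENCODE M21 on GRCm38 gave positions, lengths and biotypes, with all 81 IDs found. The fit was also run on simulated counts, and the outcome of that run is not given here. edgeR 4.0.16 and DESeq2 1.42.0 were run on recovered reads of the 6 libraries without mutated CTCF. Other alternatives changed the pseudocount (0.5 or 10), the filter (none, or a mean of 50), the scaling, the libraries in the fit (only the 2 groups compared, or 1 left out) and the variance prior (no trend), or added the replicate number as a block or a correction for length and GC. The Ctcf gene and 1 member that the rule would name are not reported here.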

Additional observations from a re-analysis of the deposited data

How the results depend on the processing

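With 2 replicates a group, the counts of called members rest on a variance prior shared by genes of like level. Without that trend the called members numbered 26 for IAA, 5 for wild-type CTCF, 1 for mutated CTCF, 6 between forms and 20 for mutated CTCF against the untreated control. Over all tested genes 24.9%, 15.0%, 20.4%, 20.6% and 24.5% were then called in these comparisons. The fewest reads behind a member's value were 60. DESeq2 on recovered reads called 15 for wild-type CTCF, and over all genes 3858 for IAA, 2616 for wild-type CTCF and 4458 for wild-type CTCF against the untreated control, where limma called 5967, 4991 and 6828 and edgeR 6576, 5037 and 7514; median-of-ratios rescaling gave 20 for mutated CTCF, also 20 together with the replicate block.

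Leaving out 1 library at a time gave 42 to 55 called members for IAA (fewest without control replicate 1 with IAA), 13 to 55 for wild-type CTCF (23 without control replicate 2 with IAA), 6 to 10 for mutated CTCF and 19 to 53 between forms (27 without mutated replicate 1). The medians of the large and small subunit ranged from 0.042 to 0.22 and 0.0027 to 0.24 for wild-type CTCF, and from -0.24 to -0.053 and -0.26 to -0.030 between forms, the extremes being those without a wild-type replicate. For mutated CTCF they ranged from -0.028 to 0.023 and -0.042 to 0.013, positive without control replicate 1 with IAA (0.023 and 0.013) or mutated replicate 1 (0.016 and 0.0098). For IAA the medians stayed between 0.15 and 0.21 and between 0.17 and 0.24 under every alternative run.

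The replicate number is shared across groups. Gene by gene, same-numbered libraries did not deviate together over all tested genes (mean correlation 0.0037, from -0.022 to 0.028 over 6 pairs). Over the members alone the correlations ran from -0.22 to 0.55. Such correlations cannot show a shift common to all genes. The median of replicate 2 minus replicate 1 over all tested genes was above 0 in each group, from 0.026 to 0.050 on the log2 scale. Whether the numbers pair the samples cannot be told from these values. With the replicate block 66, 43, 13 and 49 members were called in the 4 main comparisons, and 72 and 62 against the untreated control. With the correction for length and GC the counts were 64, 35, 12 and 42. In limma's main fit 64, 35, 10 and 44 were called.

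Of 854 values of named members under an alternative, 722 kept their direction and side of the threshold, 66 lost and 44 gained a call, and 22 changed sign. All of the 22 belong to copies that had not passed the test. Rps4l with IAA was -0.020 with equal totals, -0.021 with the length and GC correction, alone or with the replicate block, and -0.085 to 0.15 leaving out a library. With mutated CTCF it was 0.035 under that correction, with or without the block, and -0.18 to 0.13 leaving out a library, and with wild-type CTCF -0.020 to 0.46. Rpl39l with wild-type CTCF was -0.0045 with median-of-ratios rescaling, with or without the block, -0.014 with edgeR, -0.0088 with DESeq2 and -0.064 to 0.17 leaving out a library. Rps27l with mutated CTCF was 0.022 with the length and GC correction, alone or with the block, and -0.11 to 0.084 leaving out a library; it ranged from -0.032 to 0.27 with wild-type CTCF and from -0.28 to 0.020 between forms. Rpl10l ranged from -0.33 to 0.11 with wild-type CTCF and from -0.40 to 0.039 between forms. The cause of these changes was not tested. Over the gene body in place of exons, 10 of the 12 levels named per kb moved by more than their spread. The tests on recovered reads were not run for comparisons with mutated CTCF, because the step of 1 of its libraries (0.989) lies too close to 1 for the recovery to be checked.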
